A study of Drosophila melanogaster with 6 samples.

Results

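The genes described here are 76 protein-coding *Drosophila melanogaster* genes that carry only a systematic CG number as symbol and were counted at near 0 in control flight muscle and clearly above 0 in flight muscle expressing Antp. They were chosen by their counts: at most 10 in each of the 3 UAS-GFP libraries and at least 100 in each of the 3 UAS-Antp libraries. These limits were met by 76 of the 6500 genes with such a symbol (1.17%) in a table of 17611 genes. The same limits were met by 77 of the 11111 genes with another kind of symbol (0.693%), and by 153 genes of the table in all (0.869%). With the genotypes exchanged, the limits were met by 3 CG genes (0.0462%) and by 8 genes in all (0.0454%). Since the counts chose the genes, their difference between the genotypes is given as a description and is not a result.

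The study asked what happens when Antp is kept on in the indirect flight muscle (IFM) after its own expression has ended. Both genotypes carried the Act88F-Gal4 driver, which is active in flight muscle after myoblast fusion, together with either UAS-GFP (labelled Act88F-Gal4;UAS-GFPnls) or UAS-Antp (labelled Act88F-Gal4;UAS-Antpnls). Pupae were staged at 25 °C, IFM were dissected by hand at 72 hours after puparium formation (APF), and muscles of 6 to 8 pupae were pooled for each library of polyA RNA. The libraries are called AxG_1 to AxG_3 (UAS-GFP) and AxA_1 to AxA_3 (UAS-Antp), as in the heads of the count table. The labels call the 3 samples of a genotype independent replicates, whereas the study's methods describe technical replicates of 1 biological sample, so that p-values measure the spread between these libraries, which may be technical.

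*Antp* is a Hox gene whose homeodomain protein binds DNA and sets the identity of thoracic segments. IFM are fibrillar muscles, whose fibre type differs from the tubular type of leg and most other muscles in the set of contractile genes expressed. A CG number is the identifier that a *Drosophila* gene receives when it is predicted from the genome sequence, and it stays as the symbol until the gene is given a name. A CG symbol therefore says nothing of function, and no role is given below to a gene that keeps one.

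*Antp* itself was counted 70, 33 and 66 times with UAS-GFP and 716673, 1092524 and 517985 times with UAS-Antp, a mean of 1.53 ± 0.434 against 6863 ± 1825 counts per 1000000 (CPM, scaled by the trimmed mean of M values, TMM; SD, n = 3). Library totals were 47460809 to 64485309 counts with UAS-GFP and 63217976 to 77781458 with UAS-Antp. The summed level of 4 fibrillar muscle genes (Act88F, fln, TpnC4 and Strn-Mlck) was 116140 to 136925 CPM with UAS-GFP and 5148 to 6310 CPM with UAS-Antp, and that of 5 tubular muscle genes was 94.2 to 126 CPM and 11920 to 14768 CPM. AxA_2 stood apart from the other UAS-Antp libraries. It had 11634 genes above 3 counts against 9975 in AxA_1 and 10702 in AxA_3, and it held 12 of 21 testis markers above 3 counts (5 and 3 in the others) and 12 of 14 eggshell and ovary markers (3 and 6). The summed testis markers were 8.34 to 8.85 CPM in the 3 UAS-Antp libraries and 0.156 to 1.00 CPM with UAS-GFP, most of it from tomb, and 5 of them (nht, Mst84Dd, fzo, aly and can) were at 0 in all 6 libraries. The summed eggshell and ovary markers were 0.687 to 2.38 CPM with UAS-GFP and 3.56 to 13.6 CPM with UAS-Antp. In AxA_1 and AxA_3 most of this sum came from Vm32E, which had no control count and 349, 498 and 474 with UAS-Antp. Of the 4 eggshell and ovary markers tested, 1 was higher, and yellow-g2 and Cp16 were at 0 throughout. Of the other lists, 6 genes of all muscle types summed to 179856 to 196640 CPM with UAS-GFP and 40875 to 46591 CPM with UAS-Antp (6 of 6 lower), and 5 trachea markers to 855 to 974 and 188 to 258 CPM (5 of 5 lower). Neuron markers were at 50.4 to 56.9 and 60.7 to 103 CPM, highest in AxA_1, with 2 of the 8 tested higher. Hemocyte markers were at 31.7 to 33.1 CPM with UAS-GFP, with none of the 5 tested passing the test. In AxA_1, AxA_2 and AxA_3 they were at 58.0, 29.5 and 34.8 CPM. Yolk protein markers were at 0, 3.62 and 0.613 CPM in the same 3 libraries. Fat body markers were at 293 to 540 and 329 to 507 CPM with none of 6 passing the test, and 7 of 8 matched accessory gland markers were at 0 throughout. The part of other tissues in the counts of the 76 genes was not tested, and in bulk muscle more cells of a type and more RNA per cell cannot be told apart.

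In UAS-GFP muscle the 76 genes were nearly silent. Of their 228 values in these libraries, 137 were 0, and 25 of the genes had no count in any of the 3. A further 13 stayed at or below 3 counts in each library, and 38 went above 3 counts somewhere. Together the 76 genes had 159, 142 and 125 counts in AxG_1, AxG_2 and AxG_3, between 0.000209% and 0.000299% of each library. Low counts in the table were mostly even numbers: of the 91 control values above 0, 79 (86.8%) were even, as were 75.0% to 81.0% of all values between 5 and 50 in each library. Why even values prevail was not tested. In UAS-Antp muscle the same genes had 401532, 504184 and 402450 counts in AxA_1, AxA_2 and AxA_3, which is 0.576%, 0.648% and 0.637% of each library. By the edgeR quasi-likelihood test over the 9546 genes tested, 71 of the 76 were higher at an adjusted p below 0.001. By that test 16.3% of all tested genes and 13.4% of the 3451 tested CG genes were higher, and 19.3% of all tested genes were lower. All 76 passed the filter on low counts through their UAS-Antp libraries, so this count follows from the choice.

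Since the UAS-GFP libraries have smaller effective sizes after TMM scaling, 10 counts there are worth 0.250 to 0.313 CPM and 100 counts with UAS-Antp are worth 0.802 to 0.989 CPM. The limits thus ask for a smaller difference than the raw counts show, and with the genotypes exchanged for a larger one. For the 25 genes with no control count, a floor of 3 counts in each UAS-GFP library gave levels from at least 14.1-fold to at least 2404-fold higher with UAS-Antp. For the other 51 genes the ratio of pooled, scaled counts ran from 9.998 for CG42675 to 31600 for CG40486, with a median of 86.7. With the 25 genes at their bound, the median ratio over all 76 was 88.7, and 37 genes were at or above 100. The median fitted log2 fold change was 9.12 (lowest 3.33, highest 16.85) beside 0.17 for all tested genes. The intervals on ratios below are exact 95% intervals that treat each count as independent, so floors and intervals cover counting error only.

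**Figure D1:**
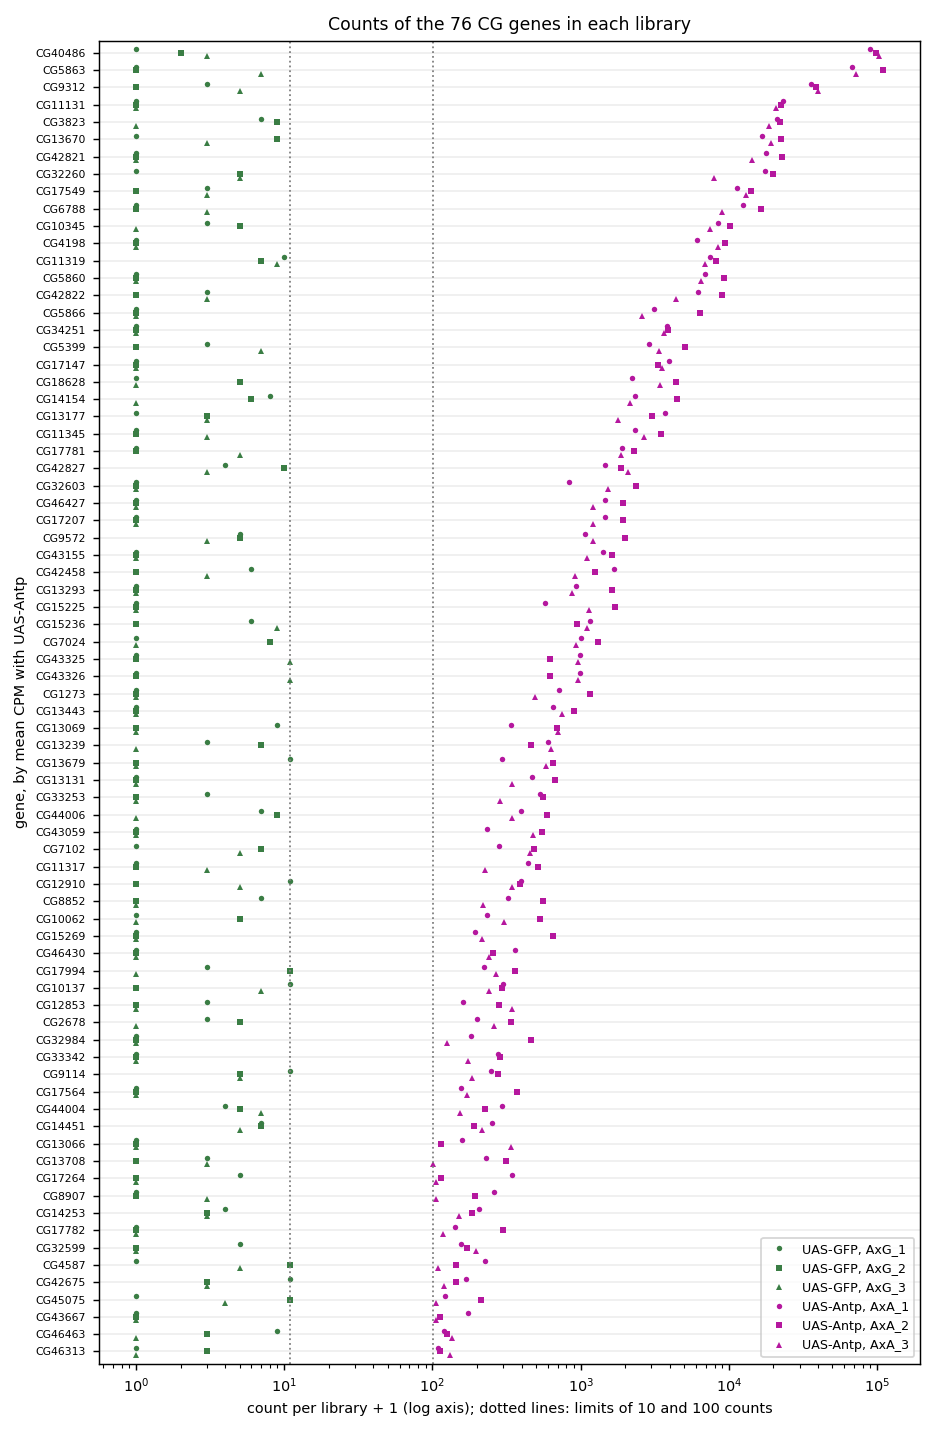
Count plus 1 of each of the 76 genes (rows, ordered by mean CPM with UAS-Antp) in each library on a log axis, with UAS-GFP libraries in green and UAS-Antp libraries in magenta. Dotted lines mark the limits of 10 and 100 counts that chose the genes. Control points lie at 0 for 137 of 228 values, and UAS-Antp points run from 100 to 109716 counts.

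The levels reached with UAS-Antp differed widely among the 76 genes. Mean CPM ran from 1.07 (CG46313) to 883 (CG40486) with a median of 6.90, beside a median of 9.60 over all tested genes in the same libraries. A mean of 100 CPM or more was reached by 10 genes, 23 lay between 10 and 100 CPM, and 43 lay below 10 CPM. The 2 genes CG40486 and CG5863 held 41.6% of the summed level, and the 12 highest genes held 82.3% of it, with genes that share exons counted once. The share below 10 CPM was 56.6%, near the 50.8% of all tested genes, and the share at 100 CPM or more was 13.2% beside 10.7%.

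CG40486 on the X chromosome (dm6, X:22958856-22960091, minus strand) was the highest. It had 0, 1 and 2 counts with UAS-GFP and 90151, 98144 and 102921 with UAS-Antp, a level of 883 ± 120 CPM (SD, n = 3) that exceeded the mean of 99.0% of tested genes. The ratio of pooled counts was 31600 (interval 10813 to 153232), resting on 3 control counts. CG5863 on 3R followed with 0, 0 and 6 counts against 68158, 109716 and 71896 (743 ± 124 CPM, ratio 13551, interval 6226 to 36927). The highest UAS-Antp library was 1.29 times the lowest in CPM for CG40486 and 1.38 times for CG5863, a spread that is small beside the distance to the controls.

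CG9312 (3R:13765756-13767103) had 2, 0 and 4 control counts and 35561, 38781 and 40123 with UAS-Antp, or 347 ± 44.6 CPM. CG11131 (3L:22898744-22900262) had none in the controls and 23293, 22561 and 20782 with UAS-Antp, or 201 ± 18.8 CPM, at least 2404-fold higher. CG3823 (X:6303975-6306745) went from 6, 8 and 0 counts to 21038, 22234 and 18581, or 186 ± 9.46 CPM. Their UAS-Antp libraries were close to each other, and with UAS-GFP these 3 genes had at most 8 counts.

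CG13670 on 3L had 0, 8 and 2 control counts against 16717, 22588 and 19349 (176 ± 18.0 CPM). CG42821 on 3R had none against 17687, 22842 and 14281 (163 ± 21.1 CPM, at least 1949-fold higher). CG32260 (3L:4142364-4145966), listed under the synonym cSP232 as well, had 0, 4 and 4 against 17618, 19883 and 7976 (134 ± 48.1 CPM). AxA_3 was the low library for CG32260, at less than the level of either other library and with the widest spread among these abundant genes.

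CG17549 (2L:19387050-19390075) had 2, 0 and 2 control counts against 11418, 14011 and 13041 (116 ± 11.5 CPM). CG6788 (X:17888177-17889404) had 0, 0 and 2 against 12437, 16462 and 8969 (112 ± 21.9 CPM). CG10345 (3R:16597073-16604861) had 2, 4 and 0 against 8421, 10217 and 7489 (78.3 ± 3.96 CPM), and CG4198 (X:5313258-5315190) had none against 6112, 9382 and 8419 (71.9 ± 13.4 CPM, at least 858-fold higher). These 4 complete the 12 genes of highest level. All 12 remained the highest without AxA_1 or without AxA_2, and 11 of them without AxA_3.

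Levels of different genes can be compared only per exon length. Per kilobase of exon, CG40486 (919 CPM per kb), CG5863 (472) and CG9312 (430) kept the first places, CG42821 followed with 364 and CG13670 with 184, and CG4587 was the lowest with 0.154. The neighbours CG5863 and CG9312 in this order differed by less than the spread of either gene over its 3 libraries. CG42821 owes its place to a short exon length, since 6 genes exceeded it in CPM. The median over the 76 genes was 5.47 CPM per kb, beside 4.41 over all tested genes.

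The 5 genes that did not pass the threshold lay at the low end. CG42675 had 10, 2 and 2 control counts and 168, 144 and 118 with UAS-Antp (adjusted p = 0.0020, edgeR). CG4587 had 0, 10 and 4 against 227, 143 and 108 (adjusted p = 0.0086), and CG17264 had 4, 0 and 0 against 342, 113 and 104 (adjusted p = 0.0011). CG45075 and CG46463 (adjusted p = 0.011 and 0.0054) share exons with named genes and are described with these. As the limits require, the UAS-Antp counts of these 5 lay above all their control counts. Over all tested genes, 37.6% had UAS-Antp libraries that all lay above all UAS-GFP libraries in CPM.

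Of the genes just inside the limits, CG43325 and CG43326 had 0, 0 and 10 control counts and CG12910 had 10, 0 and 4. Just outside lay CG31086, with 0, 12 and 0 control counts and 3325, 2725 and 3976 with UAS-Antp, and CG31706 and CG10877, each with a highest control count of 12. At the lower limit, CG13708 (228, 312 and 100 counts with UAS-Antp), CG17264 and CG43667 (174, 111 and 104) were just inside. CG11670 (99, 123 and 125), CG15482 (92, 194 and 157) and CG14017 (280, 129 and 86) fell just outside. The excluded CG31086 was more abundant with UAS-Antp than most of the genes that were kept, so neither limit falls at a gap in the values.

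The UAS-Antp libraries did not give the same level for each gene. The ratio of the highest to the lowest CPM among AxA_1, AxA_2 and AxA_3 had a median of 1.54 over the 76 genes, beside 1.25 over the 7578 tested genes with at least 100 counts in each of these libraries. The 2 sets were not matched for level, 43 of the 76 lay below 10 CPM, and the part of low counts in this difference was not tested. It was above 2 in 17 of the 76 and at most 1.5 in 34. CG17781 was the most even, with 17.7, 18.2 and 18.4 CPM (ratio 1.04), and CG13066 the least, with 1.48, 0.906 and 3.34 CPM from 158, 113 and 338 counts (ratio 3.69). The spread was largest among genes of low level, but CG32260 and CG5866 exceeded a ratio of 2 at 134 and 35.4 CPM. In 32 of the 76 genes (42.1%) AxA_2 was the highest library, as it was in 27.1% of the 7578 genes.

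AxA_2 exceeded both other libraries by more than 1.5-fold in 8 of the 76 genes (10.5%, beside 2.02% of the 7578), AxA_1 did so in 6 (7.89% beside 2.12%) and AxA_3 in 2 (2.63% beside 1.03%). Here too the genes compared were not matched for level. CG15269, with 192, 646 and 215 counts, and CG32984, with 181, 461 and 124, were among the 8. In CG32603 (828, 2359 and 1536 counts) and CG15225 (571, 1702 and 1136) AxA_2 was also highest, with AxA_3 between. AxA_2 is the library with more testis and eggshell markers, and AxA_1 that with the highest sums of hemocyte and neuron markers. The part of these tissues in the higher values was not tested. Leaving out a library can only relax the limits, so the 76 genes met them without AxA_2 as well. The median level was then 6.31 in place of 6.90 CPM. Without AxA_2, 65 in place of 71 passed the test, beside 66 without AxA_1 and 64 without AxA_3.

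**Figure D2:**
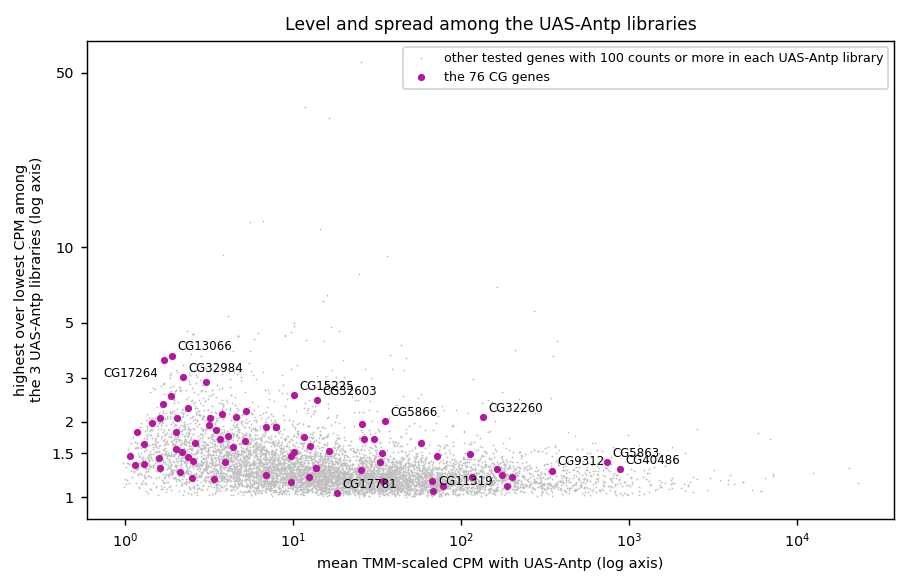
Mean CPM with UAS-Antp (horizontal log axis) against the ratio of the highest to the lowest CPM among the 3 UAS-Antp libraries (vertical log axis) for the 76 genes (magenta) and the other tested genes with at least 100 counts in each of these libraries (grey). The 76 genes run from 1.07 to 883 CPM and from a ratio of 1.04 (CG17781) to 3.69 (CG13066).

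The 76 genes had ordinary gene models. All 76 are protein coding in Ensembl release 115, with the same coordinates as in the count table. A single transcript is annotated for 46 of them, and 9 have a single exon. The longest coding sequence had a median of 1023 bases (57 in CG46313 to 3951), beside 1143 in tested CG genes, and 19 of the 76 (25.0%) were under 600 bases, beside 20.8% of tested CG genes. CG18628 is among the short ones, with 189 coding bases, and reached 2229, 4422 and 3442 counts with UAS-Antp from 0, 4 and 0.

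The annotation now names 4 of the 76: CG11319 is Dpp10, CG4587 is stol, CG2678 is kipf and CG9572 is aspr. CG11319 (Dpp10) had 9, 6 and 8 counts with UAS-GFP and 7441, 8194 and 6954 with UAS-Antp (68.0 ± 2.04 CPM), with little spread among libraries. CG2678 (kipf), a zinc finger protein that guides the chromatin protein Rhino in ovaries, had 2, 4 and 0 counts against 200, 336 and 258. CG9572 (aspr) had 4, 4 and 2 against 1074, 1998 and 1212. CG4587 (stol, a subunit of voltage-gated calcium channels) was given above at the low end. CG40486 is listed with the synonym FOHSDR. The other genes keep a CG number, apart from such synonyms.

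The genes lay on all large chromosome arms, 12 on 2L, 11 on 2R, 22 on 3L, 20 on 3R and 11 on X. The 3L share was 28.9%, beside 20.3% for all CG genes of the table. Position was not used in choosing them. Within 20 kb of another of the 76 lay 25 genes, in 10 groups, and 51 stood alone. Of these groups, 3 consist of genes that share exons. With such genes counted once, 19 loci in 7 groups remained. Proximity is common among CG genes: 88.5% of the tested ones lie within 20 kb of another tested one. Of the 339 other CG genes within 20 kb of any of the 76, 25 (7.37%) were themselves among the 76, beside 1.17% of all CG genes. With loci counted once it was 19 of 333 (5.71%) beside 1.12%.

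The neighbours outside the 76 are, by the choice, CG genes without the pattern. Of the nonmember CG genes within 20 kb, 167 were tested, and 18 (10.8%) were higher and 20 (11.98%) lower with UAS-Antp, beside 11.6% higher and 18.0% lower among the 3375 tested CG genes outside the 76. A further set took the nearest gene on each side of a member locus that did not overlap it and was not a member. These 130 genes lay at any distance, up to 37824 bases, and 3 of them met the count limits under another kind of symbol. Of the 130, 87 were tested, and 20 (23.0%) were higher and 11 (12.6%) lower. Among the 9470 tested genes outside the 76 these shares were 15.7% and 19.4%. These are counts of neighbouring genes and were not tested further.

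The largest group was a block of 5 genes on 3R (3R:17409619-17416505), all on the plus strand, with no other gene between them and gaps of 267, 396, 261 and 1131 bases. In order they are CG5860, CG5863, CG42821, CG42822 and CG5866. CG5860 had no control count and 6894, 9218 and 6450 counts with UAS-Antp (67.4 ± 5.67 CPM). CG5863 and CG42821 are among the 12 highest genes above. CG42822 had 2, 0 and 2 counts against 6235, 8921 and 4375 (57.7 ± 14.2 CPM), and CG5866 had none against 3142, 6386 and 2578 (35.4 ± 13.9 CPM). In all 5 AxA_2 was the highest library in counts.

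The 5 genes were at unequal levels: CG5863 was 21.0 times the mean CPM of CG5866 and, per kb, 9.48 times the level of the lowest. Together they had a mean of 1067 CPM with UAS-Antp. The block ended sharply on both sides. CG17283, 158 bases to the left on the same strand, had 0, 4 and 0 counts with UAS-Antp, and CG33333, 961 bases to the right, had 0, 2 and 0. Of the 8 other genes within 5 kb, 5 stayed at or below 3 counts in all libraries. The remaining 3 were CG17283, CG42823 (59, 70 and 37 counts with UAS-Antp, none in the controls) and CG42824 (35, 21 and 4). CG42821 and CG42822 share a synonym, CG34035, but no exon base.

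CG17782, CG17781 and CG33342 (3R:24370751-24377705) formed a group of 3 on both strands, with gaps of 693 and 1203 bases. CG17781 reached 11.03 times the level of CG17782 per kb of exon (11.2 times in CPM). It had 0, 0 and 4 counts against 1898, 2274 and 1860, while CG17782 had none against 142, 297 and 116. CG33342 had none against 275, 284 and 172. CG13614, which lies 19 bases from CG17782, had no count in any library. CG42812, 2586 bases away, had counts in AxA_2 and AxA_3 (101 and 25) and none elsewhere.

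On 2R, CG13443, CG43667 and CG15225 lay in a stretch of 20.1 kb (2R:20773687-20793795). CG13443 had no control count and 647, 896 and 750 with UAS-Antp, CG43667 had none against 174, 111 and 104, and CG15225 had none against 571, 1702 and 1136. The 7 other genes in the stretch had at most 2 counts in any library. CG43666 lies 77 bases from CG43667 and CG43677 lies 43 bases from it, on the same strand, and neither exceeded 2 counts. The 3 genes that were counted with UAS-Antp are thus interspersed among genes that were not.

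The other 4 groups were pairs on 3L. CG43059 (0 counts against 234, 544 and 475) and CG13670 lay 1796 bases apart on opposite strands, and CG13670 was 18.5 times as high per kb of exon (47.01 times in CPM). The genes beside them were counted in the controls. Cpsf6, 3039 bases from CG43059, had 1253, 1040 and 1224 against 8088, 11407 and 8929. CG34461, 3578 bases from CG13670, had 8782, 14527 and 6165 against 10490, 23047 and 19917. CG18628 and CG14154 lay 1752 bases apart on the same strand, with 30.1 ± 8.06 and 26.3 ± 8.46 CPM, but per kb of exon CG18628 was 3.50 times as high (90.2 against 25.8 CPM per kb). CG14154 had 7, 5 and 0 control counts against 2314, 4494 and 2138. CG14153, the next gene at 518 bases, had none against 67, 185 and 99 and missed the lower limit in 2 libraries. CG8009, 61 bases from CG18628, had 127, 162 and 166 against 864, 907 and 823. CG14154 lies within the span of CG32066 on the opposite strand, which had 751, 462 and 685 against 1279, 1462 and 935. AxA_2 was the highest library in CPM for both CG18628 and CG14154.

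CG13069 and CG13066 lay 7104 bases apart in a stretch of small genes. CG13069 had 8, 0 and 0 control counts against 337, 693 and 705, and CG13066 is the gene of widest spread given above. Near them, CG13051 had 139, 0 and 1 against 4865, 8161 and 7247 and so missed the upper limit through AxG_1. CG13068 had none against 48, 68 and 93, while CG34248 had none in either genotype. Other genes here were counted in the controls. CG4950, which overlaps CG13069 on the opposite strand, had 38, 40 and 42 against 44, 94 and 53. CG13067, between the members, had 10, 19 and 48 against 211, 644 and 631. CG13065, 3826 bases from CG13066, had 2130, 2510 and 2211 against 2021, 7665 and 3701. CG44006 (6, 8 and 0 counts against 396, 588 and 345) and CG44004 (3, 4 and 6 against 294, 225 and 153) lay 2211 bases apart and share the synonym CG34252. CG44005 lies between them on the same strand and had no count in any library. Eip75B, 4031 bases from CG44006, had 10229, 8464 and 7413 against 11787, 10805 and 11192.

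**Figure D3:**
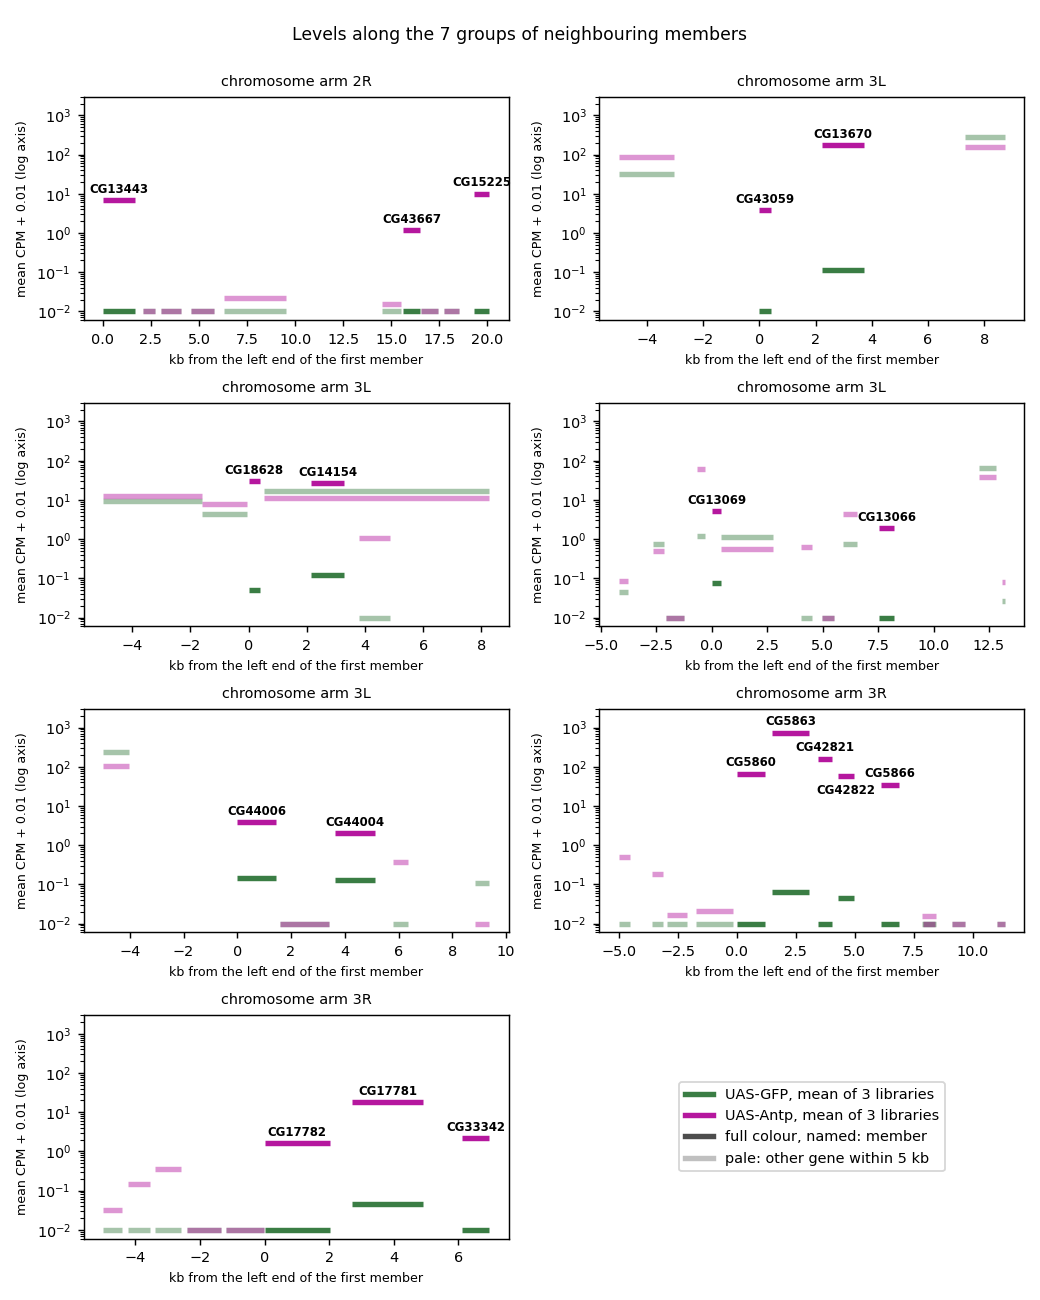
Mean CPM plus 0.01 (vertical log axis) of each gene along the 7 groups of neighbouring members, drawn over the extent of the gene in kb from the left end of the first member. Green bars are UAS-GFP and magenta bars UAS-Antp means of 3 libraries, and pale bars are other genes within 5 kb. In the 5-gene block on 3R the members lie between 35.4 and 743 CPM and the adjoining genes near 0.

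Beside these groups, 8 genes of the 76 lay within 20 kb of a gene with another kind of symbol that met the same limits. Of the 669 other genes of any symbol within 20 kb of any of the 76, 33 (4.93%) met the limits, beside 0.869% of all genes. Of these 33, 25 were themselves among the 76. The noncoding lncRNA:CR44688 lies 2124 bases from CG11131 and had 0, 0 and 2 counts against 15887, 16942 and 16279 (148 CPM, beside 201 for CG11131). The noncoding lncRNA:CR45502 lies 28 bases from CG40486 on the same strand and had 2, 0 and 0 against 1253, 1692 and 830. The thioredoxin gene dhd lies 132 bases from CG4198, with 0 counts against 412, 365 and 399. CG12853 (2, 0 and 0 against 160, 281 and 343) lies within the span of ADPS on the opposite strand, without shared exon bases. ADPS had none against 3773, 5077 and 3732. Ccn and the pseudogene CR32496 lie 6433 and 9238 bases from CG34251 and CG6788. Kr-h1 and armi share exons and nearly all counts with members, so they are not separate neighbours.

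Shared exons decide how far some counts belong to 1 gene. On the same strand, 9 of the 76 genes share exon bases with another gene, 6 of them with another of the 76. In all of these pairs the coding parts were separate, with 0 coding bases in common. CG17207 and CG46427 occupy the same 1323 bases on 3R and had identical counts, 0 with UAS-GFP and 1456, 1935 and 1203 with UAS-Antp. CG17207 codes for 220 codons and CG46427, after a gap of 40 bases, for 85. The annotation gives them 1 transcript with the same exons, so the 2 symbols describe 1 measured RNA.

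CG43325 and CG43326 on 2R share 1229 exon bases, all those of CG43326, and had identical counts (0, 0 and 10 against 994, 619 and 954). Their coding parts of 157 and 123 codons lie 282 bases apart, with CG43325 first in the direction of transcription. CG14253 and CG46313 on 3R share 1886 bases, all those of CG46313 and 69.6% of those of CG14253. CG14253 had 3, 2 and 2 counts against 206, 183 and 149, and CG46313 had 0, 2 and 0 against 108, 111 and 131. CG46313 has 19 codons that lie 58 bases before the coding part of CG14253, and a synonym places it in the untranslated leader of that gene. Each of these 3 pairs was counted as 1 locus above, which leaves 73 loci.

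The other 3 share exons with genes outside the 76. All 4168 exon bases of CG45075 are also exon of Kr-h1, which encodes a zinc finger transcription factor of the juvenile hormone response. CG45075 had 0, 10 and 3 counts against 121, 212 and 105, and Kr-h1 had 0, 10 and 3 against 121, 212 and 107. CG46463 shares 4145 of its 4147 exon bases with armi, an RNA helicase gene of the piRNA pathway, and both had 8, 2 and 0 against 119, 124 and 135. The coding parts of CG45075 and CG46463, with 83 and 92 codons, come before those of Kr-h1 and armi, with 845 and 1188. Their counts cannot be told apart from those of the longer genes.

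CG12910 shares 101 bases, 3.79% of its exons, with CAP, which had 22004 to 28683 counts with UAS-GFP and 80010 to 105919 with UAS-Antp. CG12910 had 10, 0 and 4 against 393, 388 and 342, so the high control level of CAP did not appear in it. That 5 of the 76 had exactly the counts of their partner shows that reads in shared exons of 1 strand were given to both genes.

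**Figure D4:**
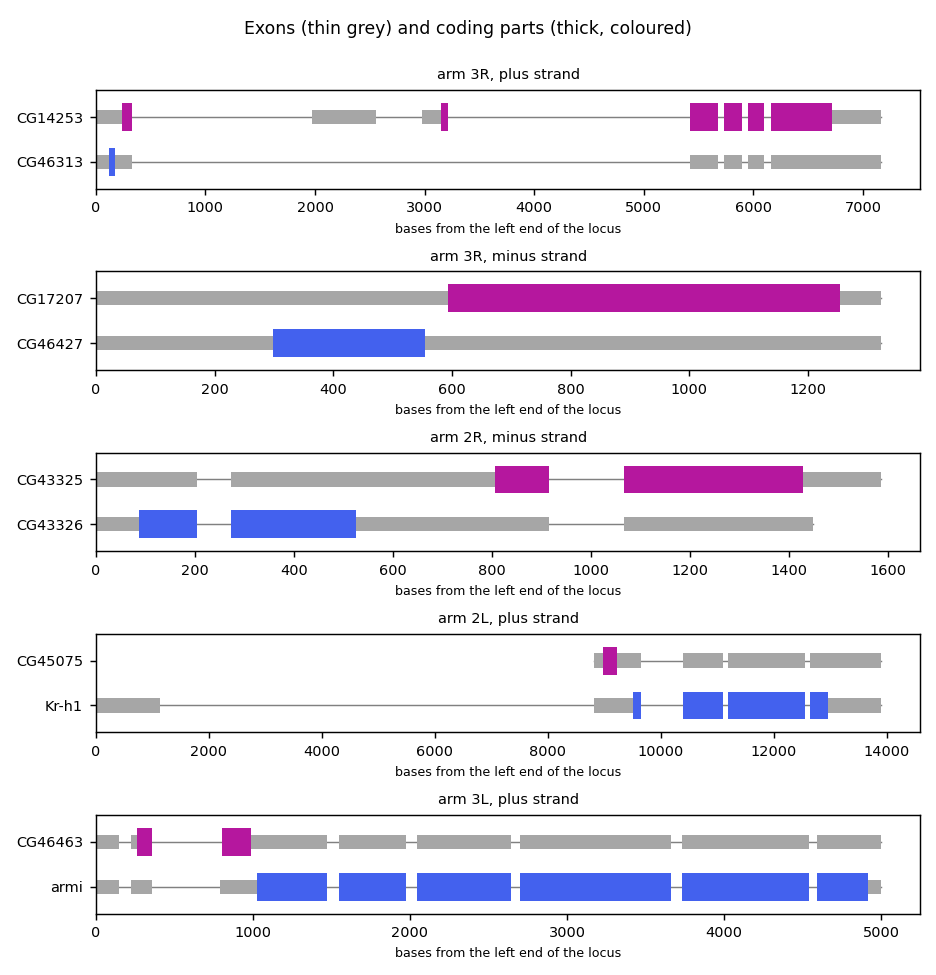
Exons (thin grey bars) and coding parts (thick coloured bars) of the 5 loci where a member shares most of its exon bases with another gene on the same strand, in bases from the left end of the locus. The coding parts do not overlap in any of the 5, with gaps of 40, 58 or 282 bases between them.

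On the opposite strand, 18 of the 76 share exon bases with another gene, mostly over a small part of their length. The extreme case is CG32599, whose exons are covered in full by the antisense asRNA:CR46473. CG32599 had 4, 0 and 0 counts against 156, 170 and 197, while the antisense gene had 0, 0 and 2 with UAS-Antp, so the reads were counted for CG32599 only. CG17207 and CG46427 overlap Desat2 by 41 bases, and Desat2 had 36, 32 and 40 counts with UAS-Antp. The library kit keeps the strand, and the deposited table is labelled as stranded counts of unique reads. CG43325 and CG43326 are covered over 55.7% and 61.9% of their exons by asRNA:CR45268, which had 248, 95 and 136 counts with UAS-Antp, or 2.32, 0.762 and 1.35 CPM, while both members were highest in AxA_3 (9.44 CPM, with 9.30 in AxA_1).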

How the data were processed

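IFM polyA RNA of 3 UAS-GFP and 3 UAS-Antp libraries was made with a stranded kit. Per the labels, the authors' tools were bcl2fastq, Subread, featureCounts and DESeq2 1.34 on dm6. The deposited table holds raw counts of uniquely mapped reads per gene by strand, without normalization, with the exon coordinates of FlyBase release 6.42. A further table of the authors' fold changes, p-values and normalized means gave the symbols, and its values were not used. UAS-Antp columns were tied to the genotype only, since their numbers differ from the sample titles. For 29 genes the symbol came from a gene name table. Coordinates were compared with Ensembl release 115.

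Counts were fitted with edgeR 4.0.16 (R 4.3.3; TMM, filterByExpr, quasi-likelihood test, Benjamini-Hochberg, threshold 0.001) on all genes after tests on simulated data. DESeq2 1.42.0 was an alternative, as were other scalings, filters, limits and left-out libraries. Gap and exon overlap came from the coordinates in the table. The members, lists and limits were chosen with earlier results of these data known. All members could be named. Counts of every library were due for the 12 highest genes, those within 20 kb of another member, those sharing exons, the extremes of spread and the 3 genes at each side of a limit. Promoter and protein sequences were not used here.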

Additional observations from a re-analysis of the deposited data

How the results depend on the processing

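All 76 genes were higher with UAS-Antp under every setting tried, by edgeR and by DESeq2, which follows from the limits that chose them. Leaving out 1 library at a time gave 64 to 70 of them past the threshold in place of 71, and 2758 to 3043 in place of 3397 of all tested genes. The count limits were then met by 77 to 89 CG genes. The 76 were necessarily among these, since leaving out a library can only relax the limits. With library totals in place of TMM, 5655 genes passed, of which 87.9% in place of 45.8% were higher, and the median log2 fold change over all genes moved from 0.17 to 1.48. At a threshold of 0.05, 5807 genes passed. At most 3 control counts left 38 of the 76, and 13 in place of 25 within 20 kb of another. Limits applied to TMM-scaled counts left 40. Overlap on either strand gave 21 genes with shared exon bases in place of 9. The choice of limits and scaling thus sets how many genes belong, and the cause of the other shifts was not tested. Low control counts limit every ratio, since a few reads decide it. The labels number the UAS-GFP samples 1 to 3 and the UAS-Antp samples 4 to 6, while the column heads number 1 to 3 in both. A fit with the number of the column heads as a replicate block, added after seeing the data, left 3058 genes and 64 of the 76 past the threshold. Deviations of same-numbered libraries correlated at 0.014 to 0.063 over 9546 genes, and those of differently numbered libraries at -0.109 to 0.061. AxG_1 correlated best with AxA_2, while AxG_2 and AxG_3 correlated best with the library of their own number. With so few libraries, these small values cannot decide whether same-numbered samples belong together.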

Other observations

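The 77 genes with other symbols that met the same count limits are given by their number and the 5 of highest level. The highest was lncRNA:CR44688 with 148 ± 12.6 CPM (SD, n = 3), which lies beside CG11131. TrissinR, the receptor of the neuropeptide trissin, had no control count and 12596, 17055 and 16166 counts with UAS-Antp (138 ± 21.1 CPM). Adgf-C, of the adenosine deaminase-related growth factor family, reached 81.7 ± 5.94 CPM, Mal-A2, a maltase, 71.9 ± 2.69 CPM, and S-Lap2 71.7 ± 3.33 CPM.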
